A study of Homo sapiens with 48 samples.

Results

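DLD-1 is a human colorectal adenocarcinoma line, and the comparison described here sets 3 DLD-1 libraries from cells treated with carfilzomib for 24 h against 3 from cells given DMSO, the solvent. These 6 libraries are the DLD-1 columns of a count matrix with 48 libraries, in which 8 cancer lines (colon, lung, pancreas and multiple myeloma) each have 3 carfilzomib and 3 DMSO samples. Each line received its own dose of carfilzomib, chosen as the IC50 for inhibition of its proteasome. The DLD-1 dose is not given in the sources used here, so line and dose cannot be told apart in any comparison between lines. The labels call the samples of a group biological triplicates and do not say whether they came from separate cultures, so the p-values measure the spread between these samples. The matrix has 33892 rows, of which 16578 had enough counts in the 6 DLD-1 libraries to be tested.

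Carfilzomib is an irreversible inhibitor of the proteasome, the barrel-shaped protease that degrades proteins tagged with ubiquitin, and it acts mainly on the chymotrypsin-like site of the subunit PSMB5. Cells with too little proteasome activity are known for 3 linked transcript programmes: NFE2L1 (also NRF1), a factor normally destroyed by the proteasome, drives the genes of new proteasome subunits; HSF1 drives chaperones of the HSP70, HSP40 and small heat shock families; and the kinases of the integrated stress response raise translation of ATF4, which drives genes of amino acid supply and, through DDIT3 (CHOP), of cell death. The title of the series names HSP70 as the molecule of interest. DLD-1 also carries a truncated APC protein and mutant p53, which is background for the Wnt and p53 lists below.

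Total counts on gene rows ran from 24420936 to 48857915 per library, with the deepest library in the DMSO group (replicate 1) and the shallowest in the carfilzomib group (replicate 3). Normalization factors lay between 0.986 and 1.019, and the 10 most abundant genes took 5.58% to 6.34% of counts in each library. All 3 pairs of replicates in each group differed by more than counting noise, so each library was used as a sample of its own. DMSO replicate 3 stood apart, with a chi-square per degree of freedom of 15.1 and 11.4 against the other controls, where those 2 differed by 5.67 and the carfilzomib pairs by 4.61 to 5.11; without it 1870 genes rose and 2149 fell. The colon label was checked against 29 intestinal epithelial markers with a row, of which 16 reached 1 CPM (counts scaled to a common library total) in all 6 libraries, among them KRT8, KRT18, KRT19, CDH17, CDX2, HNF4A and EPCAM, while FABP1, LGALS4 and SI had no count. Of 15 immune cell markers, CD68 and CD14 reached 1 CPM in all 6 libraries. CD3D, CD79B and MS4A1 had no count, and 11 stayed at or below 10 counts in every library. The summed level of the 15 was nevertheless higher after carfilzomib, 13.6 to 15.2 CPM against 5.62 to 6.12 CPM. Without CD68, which encodes a lysosomal membrane protein, it was 3.54 to 4.31 CPM against 3.07 to 3.28 CPM. The summed level of 11 fibroblast and endothelial markers was 9.64 to 10.5 CPM after carfilzomib and 6.71 to 7.58 CPM in DMSO. Their part in the results below was not tested.

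A gene is called here when its adjusted p in edgeR's quasi-likelihood test, with Benjamini-Hochberg adjustment over all genes tested, is under 0.05. In DLD-1, 1812 genes rose (10.9% of those tested) and 2005 fell (12.1%), 23% in either direction. Most changes were small. The median absolute log2 fold change of the called genes was 0.307, only 168 of the genes that rose and 45 of those that fell changed at least 2-fold, and the median over all genes tested was 0.00144. Among all genes tested, 39.9% had 3 libraries of a group all above the other 3, so a lack of overlap alone is not unusual in these data. Scaled by library totals instead of the trimmed mean of M-values (TMM), which moved the median of all genes to 0.0397, the genes called were 60.3% higher rather than 47.5%. Without carfilzomib replicate 1, 1183 genes rose and 1272 fell, and without carfilzomib replicate 3, 1099 rose and 1296 fell.

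**Figure D1:**
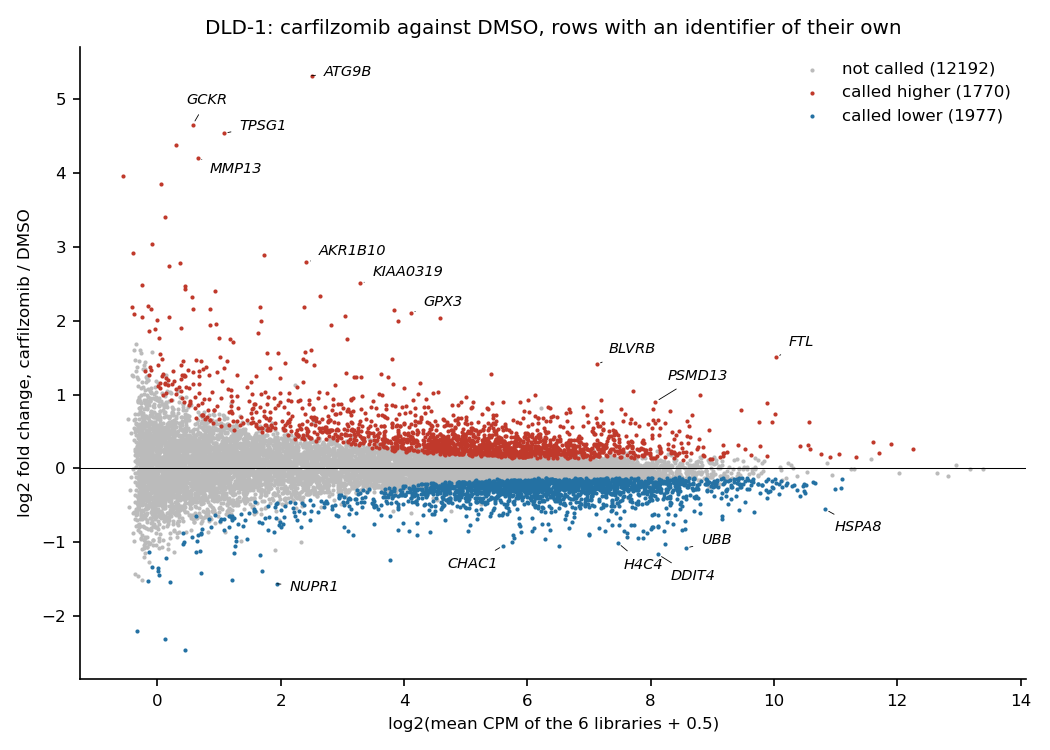
Log2 fold change (carfilzomib over DMSO, vertical axis) against the log2 of the mean CPM of the 6 libraries plus 0.5 (horizontal axis) for each DLD-1 gene whose Ensembl identifier has a single row. Red points are the 1770 called higher, blue points the 1977 called lower and grey points the rest; ATG9B has the highest fold change, at 5.32, and most coloured points lie between 1 and -1.

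Proteasome genes rose together. All 13 core particle subunits tested rose, with log2 fold changes from 0.349 to 0.801 and a median of 0.545, where 10.9% of all genes tested rose and their median was 0.00144. In the regulatory particle, which caps the core and unfolds the substrates, all 19 subunits tested were called higher. For PSMC4 that call rests on carfilzomib replicate 3, with 30.8 CPM against at most 0.734 CPM in the other 5 libraries, and its identifier is shared by several rows of the matrix, so its value is uncertain. The other 18 ranged from 0.223 to 0.903 with a median of 0.505. PSMB3 did not pass the filter on low counts in DLD-1, and its identifier too has several rows.

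PSMD13, a lid subunit of the regulatory particle (chr11:236546-252984, plus strand, overlapping SIRT3 on the other strand), had 186, 197 and 181 CPM in the DMSO libraries and 355, 335 and 364 CPM after carfilzomib. No treated library reached down to a control, and PSMD13 rose by 0.90 ± 0.05 (log2 fold change ± standard error, SE; adjusted p = 3.04e-06). PSMB2, a structural subunit of the core, was at 129, 124 and 145 CPM in DMSO and 215, 226 and 253 CPM after carfilzomib (0.80 ± 0.07, adjusted p = 3.81e-05). Again every treated library lay above every control. PSMB5, the subunit that carries the site carfilzomib binds, had 112, 110 and 115 CPM in DMSO against 154, 148 and 165 CPM, a smaller rise of 0.47 ± 0.05 (adjusted p = 0.000131). The catalytic neighbours PSMB6 and PSMB7 rose by 0.78 ± 0.05 and 0.75 ± 0.06. The smallest change among the subunits was that of PSMD12, at 93.0, 94.4 and 99.5 CPM against 114, 103 and 117 CPM. Its call (0.22 ± 0.06, adjusted p = 0.0159) was lost without DMSO replicate 2, carfilzomib replicate 1 or carfilzomib replicate 3, where the adjusted p was 0.0542, 0.072 and 0.0799.

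**Figure D2:**
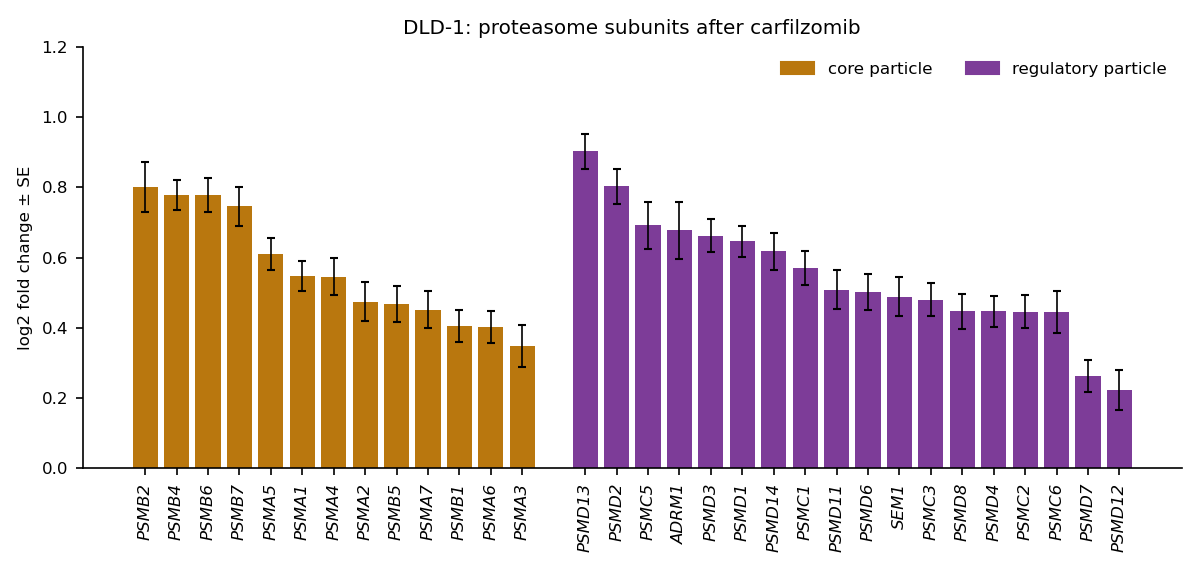
Bars give the log2 fold change (carfilzomib over DMSO) of each proteasome subunit gene tested in DLD-1 whose identifier has a single row, with its SE, for the core particle (left) and the regulatory particle (right). All bars are above 0, from 0.22 for PSMD12 to 0.90 for PSMD13.

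Of 15 proteasome assembly factors and activators tested, 5 rose and 1 fell, 40% called against 23% of all genes tested. POMP, the maturation factor of the core, rose by 0.72 ± 0.06 (adjusted p = 1.74e-05), PSME4, which encodes the activator PA200, by 0.40 ± 0.05, and the assembly chaperone PSMG3 by 0.26 ± 0.05. The call of PSME1 rests on carfilzomib replicate 2 alone (26.3 CPM, at most 0.936 CPM elsewhere), again on a row with a shared identifier. PSMF1, an inhibitor of the core, fell by -0.16, a call lost without DMSO replicate 2 or any 1 carfilzomib library, and PSMG1, PSMG2, PSMD5, PSMD9 and PSMD10 did not pass the test.

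Antioxidant response elements are the sites that NFE2L1 and NRF2 bind with small MAF partners. The core letters TGACNNNGC were searched on both strands of RefSeq promoter windows, from 250 bases before to 50 after each gene's start site (GRCh38.p14). They occur in 5 of 18 regulatory particle promoters (27.8%), 1 of 10 core particle promoters (10%), and 13.6% of all promoters in the table. The share was 15% among genes tested in DLD-1 and 20.5% among genes that rose. The windows below are examples and show the match in capitals for 3 regulatory particle genes and for GCLM, an NRF2 target described further on. Each is 100 bases, written 5′ to 3′ on the strand of the gene; a match read on the other strand appears as its reverse complement. A match is a description of these letters and not a mapped site.
PSMD3 (chr17:39980707-39980806, plus strand): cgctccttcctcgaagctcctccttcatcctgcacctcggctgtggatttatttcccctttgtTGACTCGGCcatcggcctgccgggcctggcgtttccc
ADRM1 (chr20:62302729-62302828, plus strand): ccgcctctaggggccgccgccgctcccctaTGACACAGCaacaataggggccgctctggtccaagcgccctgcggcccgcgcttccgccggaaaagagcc
PSMD12 (chr17:67366673-67366772, minus strand): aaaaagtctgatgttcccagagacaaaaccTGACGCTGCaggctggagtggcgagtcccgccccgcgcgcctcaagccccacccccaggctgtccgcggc
GCLM (chr1:93909431-93909530, minus strand): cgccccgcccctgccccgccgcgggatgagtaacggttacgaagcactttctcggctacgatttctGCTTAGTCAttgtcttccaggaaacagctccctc

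Among promoters of the integrated stress response list, whose genes mostly fell, the share was 9 of 30 (30%). PSMD3, whose promoter holds a second match outside the window, and ADRM1 rose by 0.66 and 0.68 on the log2 scale, while PSMD12, which has the same core letters, showed the smallest change of the subunits.

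NFE2L1 itself did not pass the test at the transcript level, with 210, 200 and 191 CPM in DMSO and 191, 184 and 187 CPM after carfilzomib (-0.10 ± 0.05, adjusted p = 0.157). Of 15 genes that act on the NFE2L1 protein or pair with it, 7 rose and 1 fell, 53.3% called against 23% of all genes tested. VCP, the ATPase that pulls ubiquitin-tagged proteins, NFE2L1 among them, out of the endoplasmic reticulum (ER), had 683, 691 and 668 CPM in DMSO and 1068, 1009 and 1069 CPM after carfilzomib. Its groups were well apart, with a rise of 0.62 ± 0.04 (adjusted p = 5.04e-06). The VCP cofactors UFD1 and NPLOC4 rose by 0.83 ± 0.06 and 0.58 ± 0.05, and the DNA-binding partners MAFK and MAFG by 0.53 and 0.51. NGLY1, the glycosidase that trims NFE2L1, rose by 0.21. SEL1L, of the ER degradation complex, fell by -0.20, and 2 members were called lower without DMSO replicate 3. DDI2, the protease that cleaves it, was at 0.01 and was not called.

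In the ubiquitin list, 14 of 20 members tested were not called. UBB, a polyubiquitin gene (chr17:16380798-16382745, plus strand), had 538, 498 and 507 CPM in DMSO and 262, 241 and 228 CPM after carfilzomib. UBB fell by 1.08 ± 0.06 on the log2 scale (adjusted p = 3.04e-06). In the list of ubiquitin genes, E1 enzymes and recycling deubiquitinases, 4 of 20 members tested fell and 2 rose, against 12.1% and 10.9% of all genes tested. USP5, which takes free ubiquitin chains apart, was among those that rose, by 0.62 ± 0.05. Only 1 member was called higher without DMSO replicate 1 or 2 or carfilzomib replicate 1 or 3.

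The chaperones that mark a heat shock response did not rise as a group in DLD-1. Of 26 inducible chaperones and co-chaperones tested, 2 rose and 11 fell, against 10.9% and 12.1% of all genes tested, with a median of -0.206. HSPA1A and HSPA1B, the main inducible HSP70 genes, are near-identical and occupy 8 rows, so their counts were summed. That sum was 5.52, 4.86 and 4.94 CPM in DMSO and 4.34, 4.21 and 3.46 CPM after carfilzomib. Every treated library was below every control, and the difference did not pass the test (-0.35 ± 0.14, adjusted p = 0.0931). Across the alternative settings tried the sum stayed below 0 and was called in none of them.

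HSPA8, the constitutive HSP70 (chr11:123057489-123063230, minus strand), had 2181, 2159 and 2150 CPM in DMSO and 1571, 1481 and 1371 CPM after carfilzomib. This was a fall of 0.55 ± 0.05 on the log2 scale (adjusted p = 2.64e-05) with no overlap. HSPH1, a nucleotide exchange factor of HSP70, fell from 250, 262 and 260 CPM to 190, 178 and 183 CPM (-0.49 ± 0.04), and DNAJB1, its HSP40 partner, from 141, 147 and 129 CPM to 109, 105 and 99.4 CPM (-0.41 ± 0.06). HSPD1, DNAJA1, HSPB1, SERPINH1, CACYBP, AHSA1, STIP1 and HSPA4L fell as well, by -0.20 to -0.41. BAG3, a co-chaperone that is commonly induced by proteasome inhibitors, had 71.5, 63.7 and 64.3 CPM in DMSO and 63.5, 59.3 and 70.4 CPM after carfilzomib, so its groups overlapped (-0.05 ± 0.07, adjusted p = 0.664). HSP90AA1 was at 0.00 and HSP90AB1 at -0.09, neither called.

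The exceptions were rare transcripts. HSPA6, an HSP70 gene expressed almost only under stress, had 1.60, 2.65 and 0.871 CPM in DMSO and 8.42, 6.20 and 8.58 CPM after carfilzomib (2.18 ± 0.30, adjusted p = 0.000582). CRYAB, a small heat shock protein, rose by 2.20 ± 0.46 (adjusted p = 0.00669) from 6, 7 and 2 counts to 18, 19 and 19 counts. Their treated libraries were all above the controls, at levels where few reads decide the value. Of the TRiC chaperonin, which folds actin and tubulin, 5 of 8 subunits fell, where 12.1% of all genes tested did, and none rose. TCP1 was at -0.21. The count of TRiC subunits that fell went to 3 without carfilzomib replicate 2 and 2 without carfilzomib replicate 3. HSF1's row shares its identifier with others and did not pass the filter, so the factor's own transcript gave no result.

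Heat shock elements are inverted repeats of the letters GAA, here searched as GAANNTTC. This core occurs in 11 of 27 chaperone promoters (40.7%), in 6.87% of all promoters and in 4.66% of those of genes tested in DLD-1. Windows of 100 bases are shown for HSPA6, which rose, and HSPA8, which fell, with the match in capitals; each promoter holds 2 matches, of which 1 lies in the window.
HSPA6 (chr1:161524330-161524429, plus strand): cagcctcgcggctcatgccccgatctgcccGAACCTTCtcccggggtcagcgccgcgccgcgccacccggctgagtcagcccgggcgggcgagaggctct
HSPA8 (chr11:123062287-123062386, minus strand): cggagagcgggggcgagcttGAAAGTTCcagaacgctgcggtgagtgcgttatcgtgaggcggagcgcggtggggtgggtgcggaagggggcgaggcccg

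Outside the histone genes, the integrated stress response had the lowest median of the lists in the plot of list members. None of the 33 genes of the ATF4 and CHOP programme tested rose and 29 fell, with a median of -0.634. Of all genes tested 12.1% fell. ATF4, the transcription factor of the programme (chr22:39519695-39522685, plus strand), had 839, 814 and 818 CPM in DMSO and 520, 597 and 550 CPM after carfilzomib. The difference was -0.57 ± 0.05 (adjusted p = 3.38e-05) with wide separation of the groups. DDIT3, the downstream factor CHOP, which overlaps MARS1 and may share reads with it, had 44.8, 41.3 and 46.8 CPM against 26.1, 29.7 and 26.7 CPM (-0.69 ± 0.07, adjusted p = 7.56e-05). ATF3, a repressor induced by ATF4, was at 13.8, 13.5 and 13.7 CPM against 8.87, 9.67 and 9.44 CPM (-0.55 ± 0.08).

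Several ATF4 targets had larger falls than ATF4. CHAC1, which degrades glutathione and is a sensitive marker of the pathway, had 64, 62.7 and 68.8 CPM in DMSO and 29.4, 34.7 and 30.6 CPM after carfilzomib (-1.04 ± 0.07, adjusted p = 6.27e-06). NUPR1, a small chromatin-associated stress protein, had 5.52, 4.76 and 4.68 CPM against 1.47, 2.35 and 1.22 CPM (-1.56 ± 0.22, adjusted p = 0.000641), the largest fall in the list on a row with an identifier of its own. DDIT4, an inhibitor of mTORC1, had 397, 386 and 369 CPM against 166, 186 and 161 CPM (-1.16 ± 0.06). All 3 genes are among the largest falls listed below, which were chosen partly for no overlap between groups. The serine synthesis enzymes PSAT1, PHGDH and PSPH fell by -1.02, -0.63 and -0.47, and the mitochondrial folate enzymes MTHFD2 and SHMT2 by -0.82 and -0.41. Amino acid carriers followed, with SLC6A9 at -0.86, SLC7A1 at -0.77, SLC7A5 at -0.65 and SLC7A11 at -0.47. FGF21, a secreted hormone of the response, fell by -1.11, and ASNS, asparagine synthetase, by -0.75 ± 0.09. BBC3, PPP1R15A, ALDH1L2 and CTH were not called, at -0.20, 0.01, 0.02 and 0.28. PCK2 was called lower on a shared identifier, where DMSO replicate 1 alone had 8.36 CPM and no other library more than 1.10 CPM.

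Charging enzymes for transfer RNA, many of them known ATF4 targets, fell with this group. Of 19 cytosolic aminoacyl-tRNA synthetases 12 fell and 2 rose, 73.7% called against 23% of all genes tested, with a median of -0.255. GARS1 had 397, 397 and 429 CPM in DMSO and 252, 272 and 264 CPM after carfilzomib, a fall of 0.63 ± 0.05 on the log2 scale (adjusted p = 1.36e-05). TARS1, SARS1 and MARS1 followed at -0.57, -0.53 and -0.51. HARS1 and FARSA, at 0.23 and 0.21, were those that rose, and 1 synthetase was called higher without DMSO replicate 2 or any 1 carfilzomib library.

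The amino acid response element that ATF4 binds was searched as the core TGATGNAA. It occurs in 6 of 30 promoters of the integrated stress response list (20%) and 6 of 16 promoters of the synthetases (37.5%), against 3.67% of all promoters and 1.89% of those of genes tested. Among all genes that fell in DLD-1 the share was 2.96%, and among those that rose 1.39%. CHAC1, ASNS and AARS1 are shown because each fell (AARS1 by -0.48) and has a single match. The match starts at position -209, -68 and -187 from the start site, respectively, and CHAC1 and AARS1 carry it on the other strand.
CHAC1 (chr15:40953232-40953331, plus strand): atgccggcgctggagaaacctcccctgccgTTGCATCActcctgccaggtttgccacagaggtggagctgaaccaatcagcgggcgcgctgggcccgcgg
ASNS (chr7:97872409-97872508, minus strand): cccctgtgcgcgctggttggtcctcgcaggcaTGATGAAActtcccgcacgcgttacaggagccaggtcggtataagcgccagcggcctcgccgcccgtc
AARS1 (chr16:70289624-70289723, minus strand): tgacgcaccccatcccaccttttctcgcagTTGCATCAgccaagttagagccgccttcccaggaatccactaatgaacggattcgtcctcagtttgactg

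**Figure D3:**
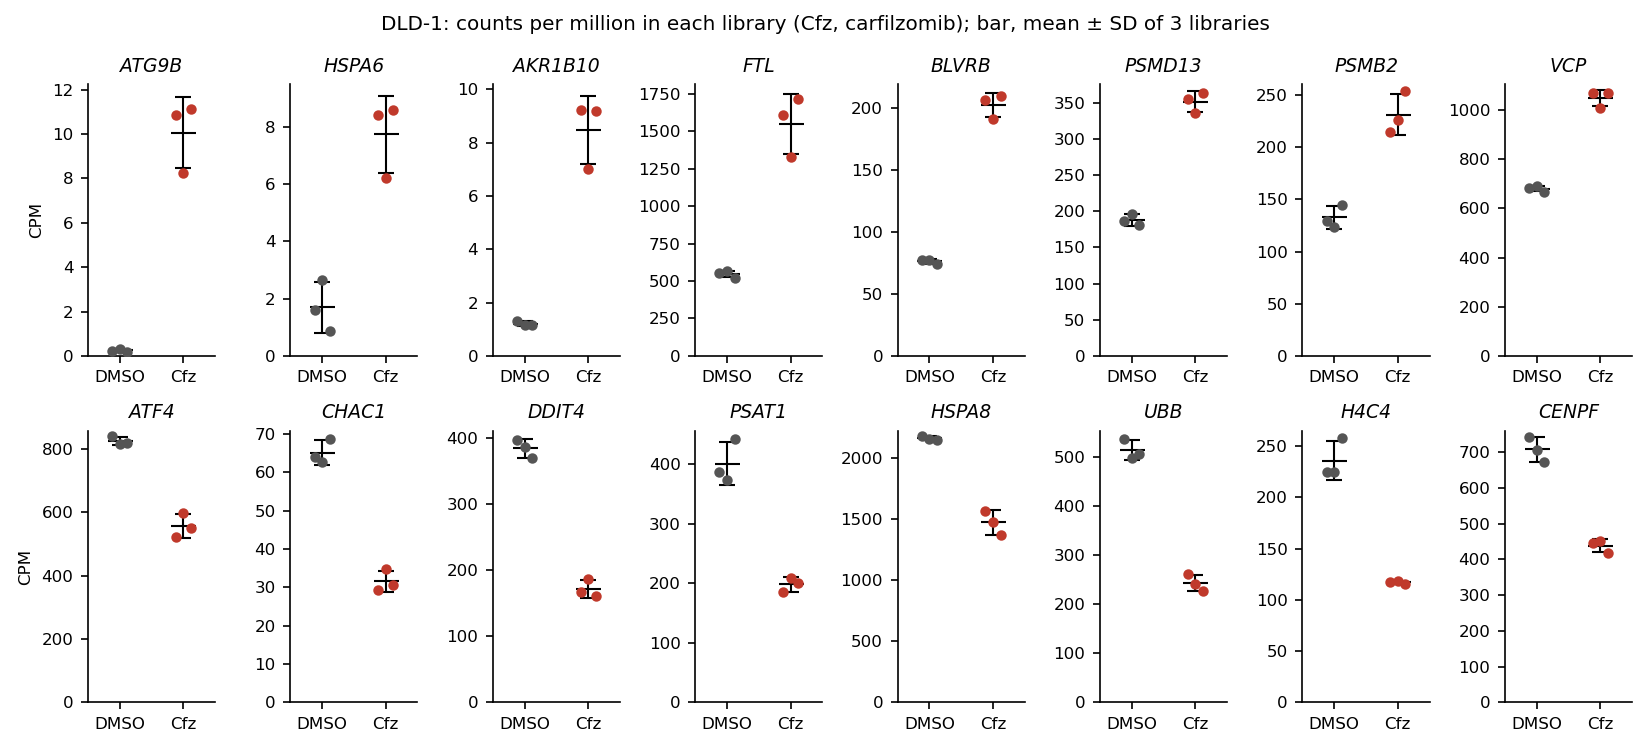
CPM in each DLD-1 library (points; grey, DMSO; red, carfilzomib) with the mean and SD of 3 libraries for 16 genes, each panel with its own axis from 0. The 8 genes of the upper row rose, from ATG9B to VCP, and the 8 of the lower row, from ATF4 to CENPF, fell, with no overlap between groups in any panel.

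The unfolded protein response of the ER showed no common direction, with 7 of 28 members higher, 5 lower and a median of -0.0157. The share called was 42.9%, against 23% of all genes tested. XBP1, whose spliced form drives ER expansion, had 236, 217 and 227 CPM in DMSO and 147, 158 and 150 CPM after carfilzomib (-0.58 ± 0.05, adjusted p = 2.65e-05). HERPUD1, a factor of ER-associated degradation, ERN1, the sensor IRE1, and DNAJB9, a cochaperone of the ER lumen, fell by -0.48, -0.35 and -0.29. HSPA5 (BiP), the main ER chaperone, had 342, 302 and 411 CPM against 285, 326 and 376 CPM, with overlap (-0.09 ± 0.11, adjusted p = 0.601). Among those that rose, SEC61B, HSP90B1 and SDF2L1 did so by 0.33, 0.26 and 0.26. The count of members that rose was 3 without carfilzomib replicate 3, and HYOU1, called at 1.89, has a shared identifier and ranged from 1.58 to 14.8 CPM among its controls.

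Genes of the NRF2 antioxidant programme were mostly higher. Of 26 tested, 15 rose and 3 fell, 69.2% called against 23% of all genes tested, with a median of 0.371. AKR1B10, an aldo-keto reductase (chr7:134527592-134541408, plus strand), had 1.31, 1.16 and 1.16 CPM in DMSO and 9.22, 7.0 and 9.20 CPM after carfilzomib, a log2 fold change of 2.80 ± 0.16 (adjusted p = 3.04e-06). GCLM, the modifier subunit of glutamate-cysteine ligase, had 37.9, 44 and 41.3 CPM against 86.9, 62.9 and 78.8 CPM (0.89 ± 0.10, adjusted p = 0.000198). GCLM was higher in every treated library than in any control. AKR1B10 is among the largest rises listed below, which were chosen partly for no overlap between groups. AKR1C3, ABCC2 and TALDO1 rose by 0.87, 0.79 and 0.72, GSR, which uses NADPH to recycle glutathione, by 0.51, and the peroxide scavengers PRDX1 and SRXN1 by 0.42 and 0.39; AKR1C members are close in sequence and may share reads. The catalytic subunit GCLC and the factor NFE2L2 (NRF2) itself fell by -0.23 and -0.29, and the cystine carrier SLC7A11, which is also an ATF4 target, by -0.47. NQO1 was at 0.06 and was not called.

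Iron storage and heme breakdown genes included some of the largest changes among abundant transcripts. FTL, the ferritin light chain (chr19:48965301-48966878, plus strand), had 555, 565 and 522 CPM in DMSO and 1610, 1329 and 1715 CPM after carfilzomib. The gap between groups exceeded the spread within them, at 1.5 ± 0.08 (adjusted p = 3.04e-06), and processed copies of FTL elsewhere in the genome leave the division of its reads uncertain. BLVRB, a biliverdin reductase, had 77.0, 77.3 and 73.9 CPM against 206, 191 and 209 CPM (1.41 ± 0.05, adjusted p = 4.53e-07). HMOX1, heme oxygenase, a common marker of proteasome inhibition, had 12.1, 11.5 and 9.04 CPM against 12.9, 11.3 and 13.5 CPM, and its groups overlapped (0.20 ± 0.12, adjusted p = 0.282). FTH1, the ferritin heavy chain, was at 0.20 and not called, while IREB2 and the transferrin receptor TFRC fell by -0.18 and -0.16. In all, 3 of 11 members rose and 2 fell, 45.5% called against 23% of all genes tested. None was called lower without any 1 carfilzomib library, and 1 without DMSO replicate 1 or 2.

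Among the named genes with an identifier of their own, ATG9B had the largest fold change. It encodes a membrane lipid scramblase of the autophagosome (chr7:151012209-151024499, minus strand) and had 0.228, 0.331 and 0.194 CPM in DMSO, which is 11, 10 and 6 counts. After carfilzomib it had 10.8, 8.23 and 11.1 CPM, or 340, 256 and 273 counts, a 40-fold rise (5.32 ± 0.22 on the log2 scale, adjusted p = 7.3e-07). NOS3, the endothelial nitric oxide synthase, overlaps it on the other strand (chr7:150990995-151014588, plus strand) and rose too, from 20, 20 and 11 counts to 81, 50 and 54 counts (2.16 ± 0.29). The kit keeps strand, but whether the counting used it is not given in the sources used here, so shared reads cannot be told apart for this pair. In the autophagy list that holds ATG9B, 7 of 34 genes rose and none fell, 20.6% called against 23% of all genes tested, and the median was 0.00468. ATG4A, a protease that processes the ATG8 family, had 10.2, 10.2 and 9.46 CPM against 18.6, 17.7 and 17.3 CPM (0.85 ± 0.08), and ATG2A and the cargo receptor OPTN rose by 0.43 and 0.29. ATG9A and GABARAPL1 were not called, at 0.09 and 0.10. SQSTM1 (p62) could not be judged, since its row, with a shared identifier, held at most 27 counts in a DLD-1 library.

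Lysosomal genes leaned upward, with 16 of 37 members higher, 1 lower (CTSH, -0.31) and a median of 0.158. The share called was 45.9%, against 23% of all genes tested. CTSD, cathepsin D, had 722, 657 and 605 CPM in DMSO and 1197, 1164 and 1306 CPM after carfilzomib (0.89 ± 0.06, adjusted p = 1.11e-05). GLA, alpha-galactosidase A, had 46.3, 45.5 and 46.7 CPM against 101, 81.1 and 93.3 CPM (0.99 ± 0.07, adjusted p = 1.16e-05). Neither gene's groups overlapped. PSAP, the saposin precursor, and CTSL, cathepsin L, rose by 0.79 ± 0.05 and 0.69 ± 0.05. The proton pump subunit ATP6V0D2 rose by 2.05 ± 0.49 from at most 0.194 CPM. Without carfilzomib replicate 3 the number of members called higher was 9, and without DMSO replicate 3 the number called lower was 3. CD68, a lysosomal membrane protein that stood among the immune markers, had 2.55, 2.85 and 2.68 CPM against 9.70, 9.57 and 11.7 CPM (1.94 ± 0.13). Another immune marker, CD14, also reached 1 CPM in all 6 libraries, and ITGAX, an integrin chain of myeloid cells, rose too. The part of immune cells in these changes was not tested.

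**Figure D4:**
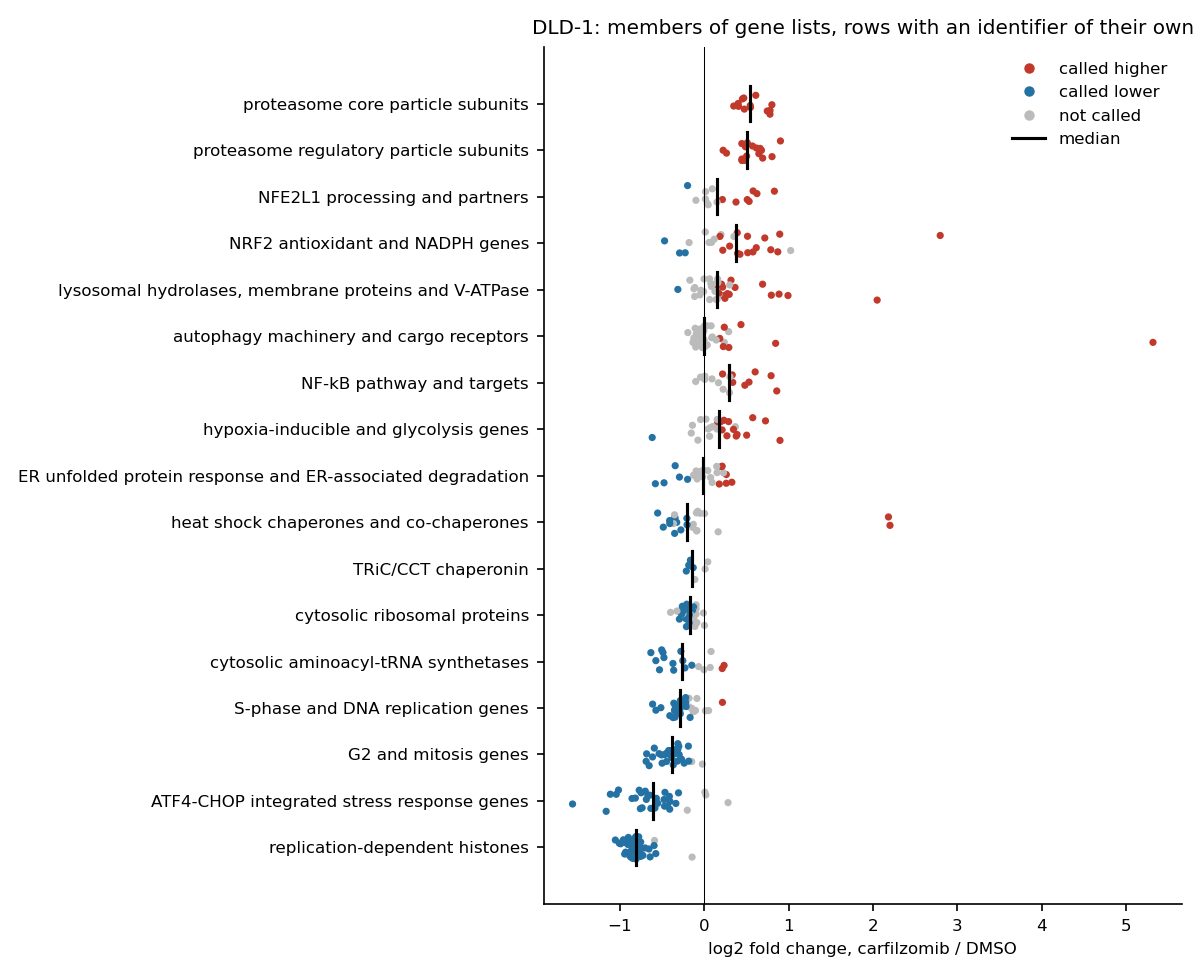
Log2 fold change (carfilzomib over DMSO) of each tested member of 17 gene lists in DLD-1, 1 point per gene with a row of its own identifier; red, called higher; blue, called lower; grey, not called; black bar, median. Lists run from the proteasome core, where all 13 points lie above 0, to the replication-dependent histones, where all 44 lie below it.

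Replication-dependent histone genes, which are transcribed in S phase and whose messages mostly lack a poly(A) tail, were the list with the lowest median. Of 44 tested, 42 fell, where 12.1% of all genes tested did, none rose, and the median was -0.81. The libraries were made with a stranded total RNA kit, per the labels, and the histone genes are near-identical copies whose reads may be divided arbitrarily. H4C4 had 225, 225 and 258 CPM in DMSO and 118, 119 and 115 CPM after carfilzomib, a fall of 1.01 ± 0.06 on the log2 scale (adjusted p = 3.04e-06). H4C8 had 115, 109 and 143 CPM against 59.3, 59.3 and 57.8 CPM (-1.05 ± 0.09). DMSO replicate 3 was the highest control in both; without it the changes were -0.94 and -0.93, and 42 histone genes were called lower. The linker histone gene H1-5 fell by -0.80 ± 0.05. Treated libraries agreed closely in these genes and lay far below the controls. CCAAT boxes, searched as CCAAT on both strands, occur in 43 of 49 histone promoters (87.8%), 35.7% of all promoters, 43% of promoters of genes that fell and 34.1% of those that rose. The H1-5 window, with 2 boxes in capitals, is shown as an example of this dense arrangement.
H1-5 (chr6:27867589-27867688, minus strand): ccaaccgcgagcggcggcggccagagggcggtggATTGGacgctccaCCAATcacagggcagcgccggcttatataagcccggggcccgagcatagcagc

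Cell cycle genes fell on a smaller scale. Of 31 genes of G2 and mitosis, 29 fell and none rose (median -0.387), where 12.1% of all genes tested fell. Among 35 S-phase and replication genes 25 fell and 1 rose (median -0.285). The 1 that rose was the cyclin gene CCNE1, by 0.22, a call lost without DMSO replicate 1 or any 1 carfilzomib library. CENPF, a kinetochore protein, had 742, 706 and 673 CPM in DMSO and 446, 451 and 418 CPM after carfilzomib (-0.69 ± 0.05, adjusted p = 9.01e-06). MKI67, the proliferation marker Ki-67, had 397, 349 and 384 CPM against 231, 257 and 250 CPM (-0.61 ± 0.06, adjusted p = 4.94e-05). The treated libraries of both genes lay below all controls. TYMS, thymidylate synthase, and POLA1, of the primase complex, fell by -0.61 and -0.57, and the MCM helicase genes MCM2, MCM4, MCM5, MCM6 and MCM7 by -0.24 to -0.35. CCNB1 and CDC20 were at -0.15 and -0.02 and not called. In bulk samples, fewer cells in a phase and less RNA per cell cannot be told apart.

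Inhibitors and D-type cyclins gave 2 of 8 members higher and 1 lower, 37.5% called against 23% of all genes tested. CDKN2B, the inhibitor p15, rose from 1.68, 2.15 and 2.36 CPM to 3.60, 3.76 and 3.91 CPM (0.87 ± 0.17, adjusted p = 0.00404), and CDKN2C, the inhibitor p18, fell from 10.4, 10.4 and 10.2 CPM to 5.61, 5.82 and 5.78 CPM (-0.85 ± 0.10, adjusted p = 0.000173). CDKN1A (p21), the main p53 target of the cell cycle, was at -0.16 ± 0.08 and not called. Without carfilzomib replicate 3, 1 member was called higher, and without DMSO replicate 3, 2 were called lower. In the p53 target list 2 of 19 members rose (PHLDA3, 0.55; AEN, 0.23) and 1 fell (DDB2, -0.27), 15.8% called against 23% of all genes tested. No p53 target was called higher without carfilzomib replicate 1 or 3, 1 without DMSO replicate 2 and 4 without DMSO replicate 3; 2 and 3 were called lower without DMSO replicate 1 and 3.

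In the BCL2 family 20% of 15 members tested were called, and 25% of 12 genes of death receptors and their partners, shares near the 23% of all genes tested. Among BCL2 family members, PMAIP1 (NOXA), a sensitizer of apoptosis that ATF4 can drive, fell from 39.9, 45.9 and 41.1 CPM to 27, 30.2 and 28.2 CPM (-0.57 ± 0.07, adjusted p = 0.00026), while BIK and BAK1 each rose by 0.38. The call of BAK1 was lost without carfilzomib replicate 1 (adjusted p = 0.0724), and 2 members were called lower without DMSO replicate 1 or 3 or carfilzomib replicate 2. MCL1 and BCL2L1, which oppose apoptosis, were at -0.03 and 0.08, not called. Among death receptor genes, TNFRSF10A (the TRAIL receptor DR4), the inhibitor CFLAR and the adaptor FADD rose by 0.35, 0.30 and 0.23, the last with adjusted p = 0.0513 without carfilzomib replicate 3.

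In 3 signalling and inflammatory lists the share called was above the 23% of all genes tested, at 47.1% for NF-kB, 47.6% for interferon and 47.8% for AP-1 genes. Of 17 NF-kB pathway genes and targets 8 rose and none fell (median 0.299), with BIRC3, an inhibitor of apoptosis, at 27.7, 25.5 and 30.5 CPM in DMSO and 42.1, 35.7 and 43.2 CPM after carfilzomib (0.53 ± 0.09, adjusted p = 0.0015). TNFAIP2 and NFKB2 rose by 0.86 and 0.48. NFKBIA, the inhibitor whose destruction by the proteasome releases NF-kB, was at 0.01. Without carfilzomib replicate 3, 5 members were called higher. Of 21 interferon-stimulated and antigen presentation genes 9 rose and 1 fell; ISG15, a ubiquitin-like modifier, had 61.2, 56.7 and 46.1 CPM against 85.9, 83.8 and 95.5 CPM (0.69 ± 0.09). Among 23 immediate early and AP-1 genes 7 rose and 4 fell. DUSP5, a phosphatase of ERK, had 140, 141 and 151 CPM against 226, 227 and 269 CPM (0.74 ± 0.07, adjusted p = 4.72e-05), whereas FOS and EGR1 fell by -0.42 and -0.40. Groups did not overlap for BIRC3, ISG15 or DUSP5. The number of immediate early genes called higher was 4 without carfilzomib replicate 3, and 2 were called lower without carfilzomib replicate 2. No interferon gene was called lower without DMSO replicate 1 or carfilzomib replicate 1 or 3, and 3 were without DMSO replicate 3.

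Metabolic genes divided by pathway. In the hypoxia and glycolysis list 14 of 27 rose and 1 fell, 55.6% called against 23% of all genes tested (median 0.192). NDRG1, a hypoxia-inducible gene, had 32.9, 32.2 and 35.5 CPM in DMSO and 65.2, 54.4 and 67.9 CPM after carfilzomib (0.90 ± 0.08, adjusted p = 3.61e-05), and the glycolytic genes ENO2 and ALDOA rose by 0.73 and 0.50. VEGFA, a classical hypoxia target that ATF4 also drives, went down, from 177, 155 and 168 CPM to 102, 113 and 110 CPM (-0.62 ± 0.06, adjusted p = 5.81e-05). Without carfilzomib replicate 3, 8 members were called higher, and without DMSO replicate 3, 3 were called lower. Of 24 cholesterol genes 20 were not called, SQLE among them, and 16.7% were called against 23% of all genes tested. The number that rose, 4, was 1 without DMSO replicate 1 or 2 or carfilzomib replicate 2 or 3. FADS2, a fatty acid desaturase, fell by -0.83 ± 0.09.

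Ribosomal protein genes were slightly lower, with 21 of 41 lower, none higher and a median of -0.17, where 12.1% of all genes tested fell. Without carfilzomib replicate 1, 14 were called lower. RPSA, the most affected of those called, had 1442, 1457 and 1465 CPM against 1166, 1200 and 1191 CPM (-0.30 ± 0.03, adjusted p = 0.00016). In ribosome biogenesis 5 of 28 genes rose and 4 fell, 32.1% called against 23% of all genes tested. NPM1, the nucleolar chaperone, was among those that fell, at -0.33 ± 0.04. The number of biogenesis genes that rose was 2 without carfilzomib replicate 3.

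Of 19 tested markers of colon identity 5 rose and 2 fell, 36.8% called against 23% of all genes tested. KRT19, an epithelial keratin, had 858, 828 and 678 CPM in DMSO and 1246, 1135 and 1278 CPM after carfilzomib (0.63 ± 0.08), and KRT8, CDH17 and MUC13 rose by 0.33, 0.29 and 0.48. CDX2 and HNF4A, transcription factors of the intestine, were at 0.08 and 0.07 and not called. No marker was called lower without DMSO replicate 1 or carfilzomib replicate 1 or 3, and 1 without carfilzomib replicate 2. Of 20 Wnt feedback targets, 4 rose, with CD44 at 0.54 ± 0.07, and 6 fell, 50% called against 23% of all genes tested. That fall was slight and unstable: 2 were called lower without carfilzomib replicate 1 and 3 without DMSO replicate 1, carfilzomib replicate 2 or carfilzomib replicate 3, and under library totals. Of those that rose, 2 were called without DMSO replicate 2 or carfilzomib replicate 1 or 2 and 1 without carfilzomib replicate 3, and AXIN2 (-0.17 ± 0.05, adjusted p = 0.0414) lost its call without any library but DMSO replicate 3. LGR5, a stem cell marker, was at -0.12 and not called. Of 7 multidrug transporters 6 rose, where 10.9% of all genes tested did. One of these calls is on a shared identifier, and of 6 transporters with an identifier of their own 5 rose. Without DMSO replicate 2 or carfilzomib replicate 3, 4 transporters rose. ABCG2 had 3.78, 4.96 and 4.16 CPM against 9.57, 8.68 and 10 CPM (1.14 ± 0.13, adjusted p = 0.000199), and ABCB1, the pump known to export carfilzomib, rose by 0.25 ± 0.05.

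Regardless of list, the 15 genes with the largest rises (at least 50 counts on average in the higher group, no overlap, identifier with a single row) were ATG9B, GCKR, TPSG1, MMP13, ITGAX, AKR1B10, KIAA0319, P2RX6, HECW1, NRIP3, HSPA6, NOS3, CYP4F3, GPX3 and GCNT3, at log2 fold changes of 5.32 down to 2.07. Most were rare in the controls. MMP13, a collagenase (chr11:102942995-102955734, minus strand), had 8, 4 and 0 counts in DMSO and 76, 56 and 47 counts after carfilzomib (4.20 ± 0.47, adjusted p = 0.000152), and TPSG1, a mast cell tryptase that overlaps CACNA1H on the other strand, 5, 4 and 5 counts against 121, 73 and 75. ITGAX, an integrin chain of myeloid cells, rose from 0.602, 0.695 and 0.710 CPM to 4.66, 4.24 and 6.06 CPM. GPX3, a secreted glutathione peroxidase, was at 6.52, 6.42 and 6.04 CPM against 26.8, 26 and 29 CPM (2.11 ± 0.08, adjusted p = 5.14e-07). TLR6, a receptor for bacterial lipopeptides with a same-strand neighbour, TLR1, of similar sequence, rose from 3.28, 3.54 and 4.10 CPM to 12.9, 11.6 and 12.4 CPM (1.76 ± 0.12). CLU, the secreted chaperone clusterin, had 301, 280 and 316 CPM against 598, 545 and 640 CPM (0.99 ± 0.06, adjusted p = 5.87e-06).

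The 15 largest falls by the same rule were SLC4A1APP1, NUPR1, H2AC19, VLDLR-AS1, MKX, ULBP1, ATOH8, DDIT4, CACNA2D1, PELI2, FGF21, UBB, H4C8, OSBPL6 and CHAC1, from -2.46 to -1.04. SLC4A1APP1 is a pseudogene, H2AC19 has a near-identical copy and VLDLR-AS1 overlaps VLDLR on the other strand, so their values are uncertain. ULBP1, a stress ligand that natural killer cells recognize, had 18.9, 16.1 and 20.9 CPM in DMSO and 7.30, 8.84 and 7.36 CPM after carfilzomib (-1.25 ± 0.12, adjusted p = 4.85e-05).

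The change in DLD-1 was then compared with that in the other 7 lines in a fit of all 48 libraries, which tests the difference between changes. Of 22302 genes tested, 4643 (20.8%) changed differently in DLD-1 from the mean of the other lines, 2599 of them with a higher log2 fold change in DLD-1 and 2044 with a lower one. Fitted on its own, each line had its own share of genes called: 8.9% in RKO, 23% in DLD-1, 33.9% in H-23, 38.7% in PANC-1, 52.5% in CAPAN-2, 52.7% in H-929, 61.2% in H-1299 and 63.5% in RPMI. DLD-1 thus stood next to the other colon line at the low end. Among chaperones, 21 of 27 had a lower change in DLD-1 and none a higher one, where 9.17% of all genes were lower. For the HSPA1A and HSPA1B sum the difference was -4.36 ± 0.52 (SE, adjusted p = 1.1e-08). In their own fits that sum changed by -0.35 in DLD-1, -0.40 in RKO and -0.14 in PANC-1, none of them called, by 2.13 in H-23, 3.26 in CAPAN-2 and 6.14 in H-1299, and by 7.75 and 9.6 in the myeloma lines RPMI and H-929. The mean of the other lines is therefore raised by 5 of them, and neither RKO nor PANC-1 showed a rise.

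The chaperones BAG3, DNAJB1 and HSPH1 differed in the same direction, by -1.52 ± 0.10, -1.73 ± 0.08 and -1.19 ± 0.08. DNAJB1 and HSPH1 fell in RKO too, by -0.59 and -0.71 against -0.41 and -0.49 in DLD-1. DNAJB1 rose most in H-1299 (1.71), RPMI (2.88) and H-929 (4.76), and so did HSPH1, by 1.65, 1.71 and 1.34. HSPA6 rose in DLD-1, and its difference from the mean of the others was -2.77 ± 0.42. Its own change of 2.18 in DLD-1 was near those of H-23 (2.28) and PANC-1 (2.50). It was larger in CAPAN-2 (6.03), H-1299 (7.75), H-929 (7.83) and RPMI (8.02), and had no fit of its own in RKO. UBB differed by -1.18 ± 0.07. It fell as well in RKO (-0.66), H-23 (-0.38) and PANC-1 (-0.39), by less than in DLD-1 (-1.08). It rose in H-1299 (0.46), H-929 (0.50), CAPAN-2 (0.61) and RPMI (0.83). Of 35 integrated stress response genes 23 had a lower change in DLD-1 and none a higher one, where 9.17% of all genes were lower. The fall of this list is not particular to DLD-1. Its median was -0.634 in DLD-1, -0.55 in H-1299, -0.466 in PANC-1 and -0.337 in CAPAN-2. It lay between -0.101 and -0.0308 in H-929, H-23 and RKO, and was 1.37 in RPMI. DDIT3 differed by -1.83 ± 0.10 and ATF4 by -0.61 ± 0.06. HMOX1 rose in every other line, by 0.67 in RKO to 4.62 in RPMI, against 0.20 in DLD-1, not called, and the difference was -2.03 ± 0.20. GABARAPL1, of the autophagosome, differed by -1.89 ± 0.08.

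Proteasome genes did not separate DLD-1 from the mean of the other lines in the same way. Of 13 core subunits 1 had a higher change in DLD-1 and none a lower one, and of 19 regulatory subunits 3 had a higher and 6 a lower one, in a background of 11.7% and 9.17%; 1 of the 3 is PSMC4, whose counts come from carfilzomib replicate 3, and without it 2 of 18 were higher. List medians in DLD-1, 0.545 and 0.509, fell within the range of the other lines, from 0.0114 and -0.0606 in RKO to 1.24 and 1.31 in CAPAN-2. DLD-1 also had a higher change than the mean of the other 7 lines in 20 of 35 S-phase genes, 17 of 28 ribosome biogenesis genes and 15 of 24 cholesterol genes, against 11.7% of all genes. Its list medians lay within the range of the single lines, however: -0.285 for S-phase genes, between -1.13 in CAPAN-2 and -0.0267 in PANC-1, 0.0501 for ribosome biogenesis, between -0.546 in H-929 and 0.0964 in PANC-1, and -0.0414 for cholesterol genes, between -0.661 in CAPAN-2 and 0.0565 in H-23. Among named genes with an identifier of their own that passed this test, MMP13, ATG9B (3.63 ± 0.32), PHEX, NPM2 and LRRC26 had the largest differences above the mean of the others; MMP13 had too few counts for a fit of its own in RKO, H-23 and PANC-1, and NPM2 had enough only in RKO and CAPAN-2 of the other lines. ATG9B is not particular to DLD-1, since its own change was 5.73 in RPMI and 3.73 in H-929. MMP13 is not either. Its own change was 3.52 in CAPAN-2 and 2.74 in RPMI against 4.20 in DLD-1, and smaller in H-1299 (0.56) and H-929 (0.76).

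RKO is the other colon line, and its proteasome genes differed from those of DLD-1 in their change. In all, 903 genes (4.05%) changed differently between DLD-1 and RKO, 500 with a higher and 403 with a lower change in DLD-1. All 13 core subunits and 18 regulatory subunits with an identifier of their own had a higher change in DLD-1, where 2.24% of all genes did. PSMC4 was called too, again on carfilzomib replicate 3, and the median differences were 0.565 for the core and 0.623 for the regulatory particle with PSMC4 included. In RKO the medians were 0.0114 and -0.0606. Of 35 integrated stress response genes 18 had a lower change in DLD-1 than in RKO, where 1.81% of all genes did, with a median of -0.634 in DLD-1 and -0.0308 in RKO. Of 31 G2 and mitosis genes 14 had a higher change in DLD-1, against 2.24% of all genes. Their median was -0.387 in DLD-1 and -0.765 in RKO. Among 27 chaperones 3 differed, all higher in DLD-1, again against 2.24% of all genes.

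**Figure D5:**
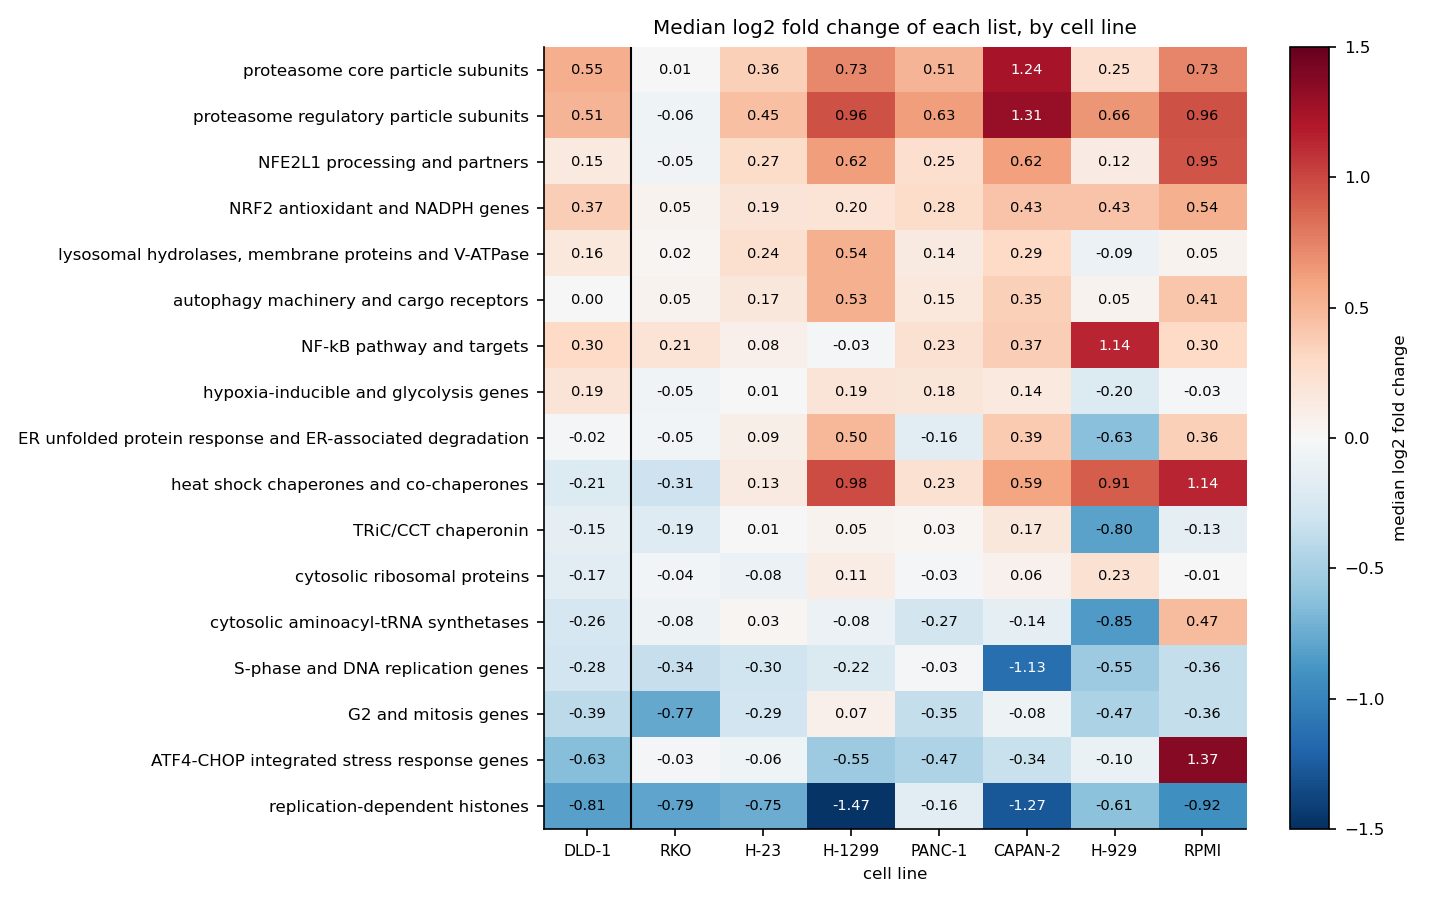
Median log2 fold change (carfilzomib over DMSO, colour and number in each cell) of the tested members of 17 gene lists in each of 8 cell lines, DLD-1 at the left. The chaperone row is below 0 in DLD-1 and RKO and above 0 in the other 6 lines; the proteasome rows are near 0 in RKO and above 0 in the other 7.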

How the data were processed

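Gene counts were used as the authors deposited them, in a matrix of raw counts per gene whose column names match the sample titles. The submitters' processing notes name bcl2fastq 2.19, FastQC, Trimmomatic, HISAT2, DESeq2 and hg38; the counting tool, its annotation and its use of strand are not given in the sources used here. Libraries came from a stranded total RNA kit, per the labels.

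Rows with too few counts were removed by edgeR's filterByExpr, factors were set by TMM, and the 6 DLD-1 libraries were fitted with edgeR 4.0.16 (quasi-likelihood, R 4.3.3, limma 3.58.1), Benjamini-Hochberg adjusted over 16578 genes. CPM values use the TMM-scaled totals. Differences between lines came from a fit of all 48 libraries with line and treatment. In the matrix 4803 rows share an Ensembl identifier with another row (1948 identifiers), and these were tested as separate rows except HSPA1A and HSPA1B. Positions are those of GENCODE 29, which matched 29680 of 33884 rows. On simulated counts, 68% of 1.5-fold, 96% of 2-fold and 100% of 4-fold changes were recovered among 16361 genes, with 6 unchanged genes called. The changed genes all had a mean of at least 50 counts, and the simulated spread depended on abundance alone. Recovery of rarer genes, and calls that rest on 1 outlying library, were therefore not tested.

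The named genes were the 15 largest rises and falls past the threshold, without overlap and with at least 50 counts on average in the higher group, up to 4 called members of each list, a fixed set of stress, proteasome and growth genes, and the 5 genes on each side that differed most from the other lines; further list members were named after their values were seen. For the largest rises and falls and the genes that differed most, no overlap was a condition of the choice. The 41 lists and their members were chosen with earlier results of these data known. Alternatives were other normalizations, filters, DESeq2 1.42.0, a replicate block, summed or omitted shared rows, thinned counts and leaving out each library. Same-numbered libraries did not deviate together (correlations -0.0122, 0.00401 and -0.0584), so the replicate numbers were not treated as pairs. Some list members are counted but not reported here by name.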

Additional observations from a re-analysis of the deposited data

Results flagged for a closer look

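These results stand out because the change in DLD-1 differed from the change in other lines by a test of the difference itself (edgeR, all 48 libraries). Over all genes, 4643 differed from the mean of the other 7 lines and 903 from RKO. Of 41 named genes tested, 26 had a lower change in DLD-1 and 8 a higher one, against 9.17% and 11.7% of all genes. Because 10 of the 41 were picked for passing this test with large differences, these counts describe the choice and test nothing. Values are DLD-1 minus the mean of the others, on the log2 scale.

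Among chaperones and ubiquitin genes the differences were -4.36 for HSPA1A+HSPA1B, -2.77 for HSPA6, -1.73 for DNAJB1, -1.52 for BAG3, -1.19 for HSPH1, -0.89 for HSPA8 and -1.18 for UBB. DNAJB1, HSPH1, HSPA8 and UBB also fell in RKO's own fit, by -0.59, -0.71, -1.30 and -0.66. Integrated stress response genes gave -1.83 for DDIT3, -1.79 for ATF3, -1.04 for CHAC1, -0.76 for TRIB3, -0.66 for ASNS and -0.61 for ATF4. In their own fits CHAC1 also fell in H-23 (-1.05), H-1299 (-2.60), PANC-1 (-0.64) and CAPAN-2 (-0.54). It rose in H-929 (1.31) and RPMI (3.41) and was not called in RKO (0.31). Antioxidant, autophagy and proteasome genes gave -2.03 for HMOX1, -0.27 for GCLM, -1.89 for GABARAPL1, 3.63 for ATG9B, -0.40 for NFE2L1 and -0.45 for PSMD12. Genes of growth control, p53 and lipids gave -0.82 for CDKN1A, -0.26 for MDM2, 0.25 for MYC and 0.24 for HMGCS1.

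Of the remaining genes, MMP13 differed by 3.84, PHEX by 1.88, NPM2 by 1.84, LRRC26 by 1.83, TLR6 by 0.59, CLU by -0.80, MLLT11 by -1.08, MAP1B by -2.09, CHRM1 by -2.69, STYK1 by -2.69 and SLC4A1APP1 by -2.85. CHRM1 had too few counts for a fit of its own in any other line, and ATG9B, HSPA6, LRRC26, MMP13, NPM2, PHEX, SLC4A1APP1 and STYK1 in at least 1, MMP13 in RKO, H-23 and PANC-1. Of the genes in all 3 groups, 10 were chosen for the size of this difference, which for them is a description.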

How the results depend on the processing

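Against 1812 genes higher and 2005 lower, a null fold change of 1.5 left 92 and 42. Leaving out each library in turn gave 1099 to 1870 higher and 1272 to 2149 lower. With the replicate block, which assumes a pairing the correlations did not show, 1578 rose and 1723 fell, the HSPA1A+HSPA1B sum was at -0.35 (adjusted p = 0.11, edgeR), and 4468 and 756 genes differed from the other lines and from RKO. DESeq2's test called 1844 higher and 2048 lower, 3554 of them with the same direction as among the 3817, and library totals gave 2309 and 1523. Some genes changed sign. MDM2 was at 0.0193 under library totals and ran from -0.0688 to 0.0156 with a library left out. BAG3 ran from -0.119 to 0.0101, and PSME1, which rests on carfilzomib replicate 2, from -0.0503 to 4.12. Neither MDM2 nor BAG3 was called as reported. DMSO replicate 1 was the deepest library, and with all libraries thinned to the lowest total 1744 genes rose and 1922 fell. Rare transcripts such as CRYAB and MMP13 are limited by their counts.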
